A study of Homo sapiens with 4 samples.

Results

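The genes described here are 10 negative-feedback and early-response genes of the ERK pathway: the MAP kinase phosphatases DUSP1, DUSP4, DUSP5 and DUSP6, the Sprouty genes SPRY2 and SPRY4, the Sprouty-related genes SPRED1 and SPRED2, the transcription factor EGR1 and the early-response gene IER3. They were chosen by name, with earlier results of these data known. Each of the 10 had 1 row among the 27452 genes of the count table. RNA sequencing compared 2 libraries of cells that carry a control short hairpin RNA (Ctrl shRNA) with 2 libraries of cells that carry a hairpin against STAT3 (STAT3 shRNA). All 4 libraries are labelled HepG2, an established human hepatoma line, kept in serum-containing medium with antibiotics and with no further treatment named, and each hairpin was carried by a line made for the study. The question was what lowering STAT3 does to other genes. STAT3 is a transcription factor switched on downstream of cytokine and growth factor receptors.

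Growth factor receptors activate RAS, which starts a kinase cascade of RAF, MEK and ERK. Active ERK induces genes within minutes, among them EGR1 and IER3, and it also induces its own inhibitors. Dual-specificity phosphatases remove the activating phosphates from ERK and its relatives, while Sprouty and Spred proteins act further upstream, on the steps that lead to RAS and RAF. The RNA levels of several of these genes are therefore commonly read as a record of recent pathway output.

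Total counts were 17694642 to 25862027 reads per library. STAT3 was at 245.03 and 244 CPM (read counts scaled to a common library size, here with TMM factors) with Ctrl shRNA and at 34.7 and 36.1 CPM with STAT3 shRNA, a 6.91-fold lower level (edgeR quasi-likelihood test, adjusted p = 3.28e-07). Hepatocyte markers did not bear out the label: albumin (ALB) had 0 reads in 3 libraries and 3 in the fourth, and the apolipoprotein APOA1 had 0, 0, 1 and 2 reads. The liver regulator HNF4A was at 1.27 and 1.78 CPM with Ctrl shRNA and 7.20 and 4.95 CPM with STAT3 shRNA, and transferrin (TF) at 2.01, 2.14, 0.900 and 0.435 CPM in the same order. HNF4A was called higher with STAT3 shRNA and TF lower (edgeR adjusted p = 0.00131 and 0.0236). The call of TF was lost in 6 of 15 alternatives. The markers AFP, APOB, TTR, SERPINA1 and FGB were not analysed here. The cells are therefore named below by their hairpins. Among 8 markers of other cell types, the collagen COL1A1 fell from 40.6 to 14.7 CPM (edgeR adjusted p = 5.00e-05). CD68, listed as a leukocyte marker, rose from 12.4 to 25.96 CPM and the proteoglycan DCN from 10.9 to 14.9 CPM (edgeR adjusted p = 0.00155 and 0.0329). CDH5 and PDGFRB did not pass, with log2 fold changes of -0.75 and 0.19. VWF, LUM and LYZ, named after their values were seen, had too few reads to be tested. LYZ, the other leukocyte marker with a row, had 9 and 4 reads with Ctrl shRNA and 10 and 4 with STAT3 shRNA. The call of DCN was lost in 9 of 16 alternatives. The sum of the 8 markers was 65.4 and 76.1 CPM with Ctrl shRNA and 61.2 and 65.3 CPM with STAT3 shRNA. The part of these differences in the results below was not tested. Nothing in the labels says whether the libraries of a group are separate cultures or share a hairpin, so the p-values rest on how far these libraries differ, and that spread may be technical.

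Of the 10 genes, 9 had enough reads to be tested. DUSP1 and EGR1 were higher with STAT3 shRNA, SPRY2, SPRED2 and IER3 were lower, and the other 4, DUSP4, DUSP5, DUSP6 and SPRED1, missed the threshold. In the same edgeR test 35.5% of all 15199 tested genes changed, 16.8% higher and 18.7% lower, so many genes outside the pathway changed as well. In bulk RNA of this kind, fewer cells that express a gene and less of its RNA per cell cannot be told apart. The median log2 fold change was 0.29 over the 9 genes and 0.02 over all tested genes. CPM of the groups did not overlap for any of the 9 genes, as was so for 70.8% of all tested genes.

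**Figure D1:**
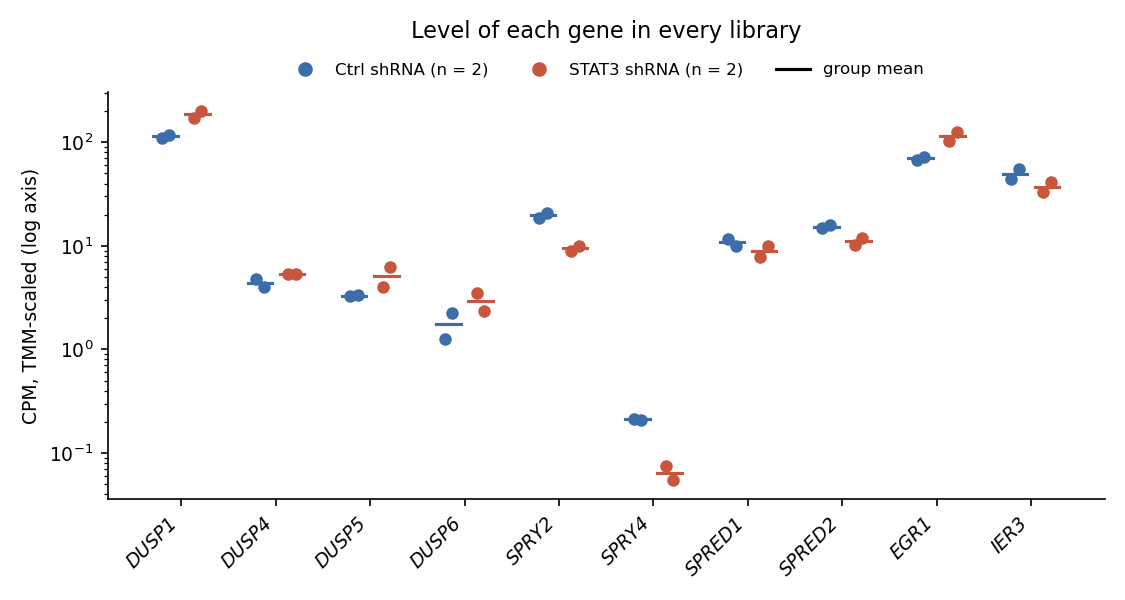
TMM-scaled CPM (log axis) of the 10 genes in each library, with points for single libraries and bars for group means (n = 2 per group). DUSP1 and EGR1 are higher in both STAT3 shRNA libraries, at up to 201 and 127 CPM, SPRY2 is lower in both, and SPRY4 lies near the level of 3 reads throughout.

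The rises were those of DUSP1 and EGR1, which lie in GRCh38 at 172768090 to 172771195 (minus strand) and 138465490 to 138469315 (plus strand) of chromosome 5. The bases just before their start sites are shown because both genes rose to about the same extent, beside those of SPRY2, which fell. The sequences are from RefSeq (GRCh38.p14), each 250 bases long and ending at the base before the start site, on the gene's own strand. DUSP1 is from chr5:172771196-172771445 (minus strand), EGR1 from chr5:138465229-138465478 (plus strand) and SPRY2, at the most upstream of its 3 listed starts, from chr13:80341127-80341376 (minus strand). Capitals mark TGACG on either strand, the core of the cyclic AMP response element, and the CArG box, the sequence that serum response factor binds.
DUSP1: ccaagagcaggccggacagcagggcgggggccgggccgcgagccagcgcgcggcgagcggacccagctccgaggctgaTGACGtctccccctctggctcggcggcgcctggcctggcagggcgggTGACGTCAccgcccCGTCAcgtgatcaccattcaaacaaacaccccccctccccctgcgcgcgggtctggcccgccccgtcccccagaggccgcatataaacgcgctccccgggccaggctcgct
EGR1: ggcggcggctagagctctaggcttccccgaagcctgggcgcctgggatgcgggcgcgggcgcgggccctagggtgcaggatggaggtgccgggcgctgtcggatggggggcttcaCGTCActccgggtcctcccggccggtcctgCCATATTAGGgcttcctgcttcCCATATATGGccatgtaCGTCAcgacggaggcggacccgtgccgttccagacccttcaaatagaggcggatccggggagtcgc
SPRY2: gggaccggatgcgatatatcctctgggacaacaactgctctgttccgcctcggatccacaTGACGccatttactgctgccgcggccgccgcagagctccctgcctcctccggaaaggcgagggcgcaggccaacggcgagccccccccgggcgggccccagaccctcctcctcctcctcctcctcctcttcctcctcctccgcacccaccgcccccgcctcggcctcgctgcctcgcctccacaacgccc
The EGR1 window held 2 CArG boxes, at -105 to -96 and -83 to -74 from the start site, and 2 matches to TGACG. In DUSP1 TGACG matched 4 times, with 2 of the matches overlapping on opposite strands, and no CArG box was found. SPRY2 held 1 match to TGACG, 1 to the ETS motif CCGGAA and 2 to the EGR motif GCGNGGGCG, which also matched 1 time in EGR1. The TATA motif TATAAA matched 1 time in DUSP1, at -30 to -25. A CArG box was present in 1.16% of 35116 promoter windows of this length, TGACG in 21.2%, CCGGAA in 14.5%, GCGNGGGCG in 8.41% and TATAAA in 10.7%. The STAT-type motif TTCNNNGAA matched 1 time in EGR1, at -228 to -220, and was present in 6.57% of all windows. Promoter sequences were used for 7 of the 10 genes. None was used for DUSP4, DUSP5 and IER3, so their promoters were not searched, and whether the reference holds an entry for them is not stated here. Among the searched genes not shown above, SPRY4 held TGACG at -68 to -64 and GCGNGGGCG at -195 to -187. The windows of DUSP6, SPRED1 and SPRED2 held no match to any of the motifs. These matches describe letters, not binding.

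DUSP1, a nuclear phosphatase that acts on stress-activated MAP kinases as well as ERK, was at 109 and 119 CPM with Ctrl shRNA and at 171 and 201 CPM with STAT3 shRNA. Both STAT3 shRNA libraries lay above both Ctrl shRNA libraries. The group means were 114 ± 6.57 and 186 ± 21.5 CPM (SD, n = 2 each). DUSP1 rose 1.63-fold, by 0.70 ± 0.10 on the log2 scale (SE; 95% interval 0.48 to 0.93; edgeR adjusted p = 0.00105). With 1 library left out at a time, it lay between 0.58 and 0.82. DUSP1 was the most abundant of the 10 genes per length of transcript, at 63.2 ± 3.38 FPKM with Ctrl shRNA and 108.6 ± 13.8 FPKM with STAT3 shRNA (SD, n = 2 each).

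The other 3 phosphatases had few reads and did not pass. DUSP5, a nuclear phosphatase selective for ERK (chromosome 10, 110497838 to 110511544, plus strand), was at 3.29 and 3.35 CPM with Ctrl shRNA and 4.01 and 6.30 CPM with STAT3 shRNA. Its 2 STAT3 shRNA libraries were both higher but far apart. The log2 fold change was 0.62 (95% interval 0.01 to 1.24, edgeR adjusted p = 0.105; range over alternatives 0.0499 to 0.664). Without STAT3 shRNA replicate 2 it was 0.27. Reads of the pseudogene DUSP5P1 came to 47.3% of those of DUSP5, and with both summed the log2 fold change was 0.49.

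DUSP6, a cytoplasmic phosphatase selective for ERK (chromosome 12, 89347232 to 89353271, minus strand), was at 1.27 and 2.25 CPM with Ctrl shRNA and at 3.53 and 2.34 CPM with STAT3 shRNA, from 24, 43, 94 and 43 reads. The second library of each group lay close to the other group. The log2 fold change of 0.74 had a 95% interval of -0.10 to 1.59 (edgeR adjusted p = 0.153; range over alternatives 0.0395 to 0.906). It was 1.21 without Ctrl shRNA replicate 2, where the gene passed (edgeR adjusted p = 0.0395), and 0.37 without Ctrl shRNA replicate 1. It was 0.41 without STAT3 shRNA replicate 1 and 0.9986 without replicate 2. Its antisense gene held 5.88% as many reads. The deposited FPKM of DUSP6 overlapped between groups, at 0.69 and 1.75 with Ctrl shRNA and 1.74 and 0.84 with STAT3 shRNA. For this gene the FPKM per CPM differed 2.17-fold between libraries, against 1.06-fold for DUSP1.

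DUSP4, another inducible nuclear phosphatase (chromosome 8, 29333064 to 29350668, minus strand), was at 4.83 and 3.97 CPM with Ctrl shRNA and 5.36 and 5.38 CPM with STAT3 shRNA. Both STAT3 shRNA values were above both Ctrl shRNA values, by a difference whose 95% interval spans 0. Its log2 fold change was 0.29 (95% interval -0.19 to 0.77, edgeR adjusted p = 0.325), so a rise of up to 0.77 or a fall of up to -0.19 on the log2 scale is compatible with the interval.

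The remaining phosphatases of the family were read alongside. Across all tested genes 35.5% were called. Of the 10 MAP kinase phosphatases measured, the 4 above included, 1 rose (DUSP1), 1 fell and 8 did not pass. The lower gene was DUSP9, a cytoplasmic phosphatase that prefers ERK, at 55.5 and 73.04 CPM with Ctrl shRNA and 27.9 and 28.0 CPM with STAT3 shRNA. It fell by 1.20 ± 0.13 on the log2 scale (SE), a 2.30-fold lower level (edgeR adjusted p = 0.000314). Over 16 alternatives the log2 fold change of DUSP9 ranged from -1.42 to -0.82. It was -0.83 with a GC offset, -1.42 without Ctrl shRNA replicate 1 and -0.99 without Ctrl shRNA replicate 2. DUSP10, which acts on stress-activated MAP kinases, had 8 and 7 reads with Ctrl shRNA and 26 and 22 with STAT3 shRNA, a log2 fold change of 1.44 that did not pass (edgeR adjusted p = 0.0538; range over alternatives 0.0479 to 0.669). DUSP2, DUSP7, DUSP8 and DUSP16 had log2 fold changes of -0.40, 0.15, -0.29 and 0.06 and did not pass. DUSP7 passed with a GC offset (0.35, edgeR adjusted p = 0.0162; range over alternatives 0.00913 to 0.833) and DUSP2 without Ctrl shRNA replicate 1 (-0.50, edgeR adjusted p = 0.0330; range over alternatives 0.0330 to 0.743). The sign for DUSP8 turned with a GC offset (0.06) and in FPKM (0.22 and 0.26), and that for DUSP16 with a GC offset (-0.01) and without STAT3 shRNA replicate 1 (-0.0080).

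SPRY2, an inhibitor of receptor signalling to RAS and RAF, was at 18.6 and 20.9 CPM with Ctrl shRNA and at 8.93 and 9.95 CPM with STAT3 shRNA. Both STAT3 shRNA libraries were below both Ctrl shRNA libraries. The group means were 19.7 ± 1.59 and 9.44 ± 0.719 CPM (SD, n = 2 each). SPRY2 fell by 1.07 ± 0.14 on the log2 scale (SE; 95% interval -1.39 to -0.75), a 2.10-fold lower level (edgeR adjusted p = 0.000716). With single libraries left out the log2 fold change stayed between -1.18 and -0.99. SPRY2 lies at 80335976 to 80340951 of chromosome 13 on the minus strand.

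SPRED2, a relative that recruits neurofibromin to RAS (chromosome 2, 65310851 to 65432637, minus strand), was at 14.8 and 15.8 CPM with Ctrl shRNA and 10.2 and 12.0 CPM with STAT3 shRNA. The groups did not overlap. It fell by 0.46 ± 0.15 on the log2 scale (SE; 95% interval -0.80 to -0.13), a 1.38-fold lower level (edgeR adjusted p = 0.0377; range over alternatives 0.0161 to 0.2996). This call was lost without Ctrl shRNA replicate 2 (edgeR adjusted p = 0.0635), without STAT3 shRNA replicate 1 (0.2996) and without STAT3 shRNA replicate 2 (0.0834), with upper-quartile scaling, with DESeq2 and with FPKM.

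SPRED1, which works in the same way (chromosome 15, 38252326 to 38357249, plus strand), was at 11.7 and 9.99 CPM with Ctrl shRNA and at 7.80 and 9.95 CPM with STAT3 shRNA. The highest STAT3 shRNA value nearly met the lowest Ctrl shRNA value. The log2 fold change was -0.30 (95% interval -0.71 to 0.11, edgeR adjusted p = 0.234; range over alternatives 0.0400 to 0.770). It became -0.50 and passed when an offset for GC content was added (edgeR adjusted p = 0.0420). SPRY4, a further Sprouty inhibitor (chromosome 5, 142310427 to 142326455, minus strand), had only 4, 4, 2 and 1 reads, near the level of 3 reads (0.113 to 0.163 CPM), and was not tested. Its ratio of STAT3 shRNA to Ctrl shRNA was 0.316, with a 95% counting interval of 0.0540 to 1.32 (exact binomial, counting error only), so no difference was detectable at this depth.

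With SPRY1, SPRY3 and SPRED3 included, 7 Sprouty and Spred genes had rows and 6 were tested. Of these SPRY2, SPRED2 and SPRY1 were called lower and the other 3 did not pass. Across all tested genes 35.5% were called, 16.8% as higher and 18.7% as lower. SPRY1, a close relative of SPRY2, was at 1.27 and 1.73 CPM with Ctrl shRNA and 0.413 and 0.543 CPM with STAT3 shRNA, from 24, 33, 11 and 10 reads. It fell by 1.66 ± 0.47 on the log2 scale (SE), a 3.15-fold lower level (edgeR adjusted p = 0.0252; range over alternatives 0.0101 to 0.198). That call was lost without Ctrl shRNA replicate 2 (edgeR adjusted p = 0.151) and without STAT3 shRNA replicate 1 or 2 (0.198 and 0.114), and with DESeq2. SPRY3 and SPRED3 had log2 fold changes of 0.73 and 0.31 with overlapping groups. The sign turned without STAT3 shRNA replicate 1 for both, to -0.24 and -0.44, and for SPRED3 also without Ctrl shRNA replicate 1 (-0.04) and in FPKM.

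**Figure D2:**
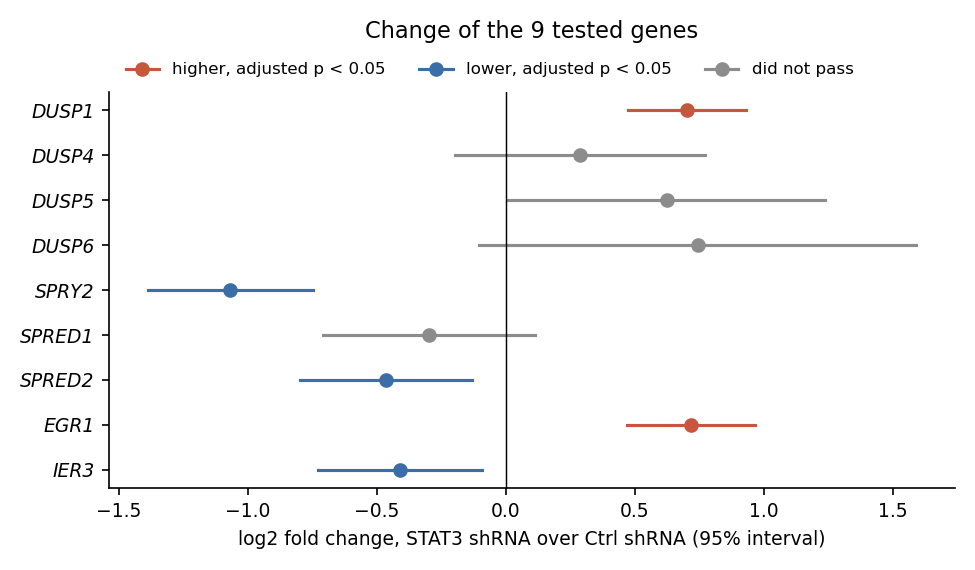
Log2 fold change of the 9 tested genes, STAT3 shRNA over Ctrl shRNA, with 95% intervals from the edgeR fit (n = 2 per group). DUSP1 and EGR1 lie near 0.7 and SPRY2 at -1.07, while the intervals of DUSP4, DUSP6 and SPRED1 span 0.

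EGR1, a zinc finger transcription factor induced directly by ERK, was at 67.7 and 71.9 CPM with Ctrl shRNA and at 103 and 127 CPM with STAT3 shRNA. The groups were clearly apart, and the 2 STAT3 shRNA libraries differed from each other more than the Ctrl shRNA libraries did. The group means were 69.8 ± 2.95 and 115 ± 16.7 CPM (SD, n = 2 each). EGR1 rose 1.65-fold, by 0.72 ± 0.11 on the log2 scale (SE; 95% interval 0.47 to 0.97; edgeR adjusted p = 0.00148). It lay between 0.56 and 0.86 with 1 library left out at a time.

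Other EGR genes had few reads. EGR3, named after its values were seen, had 0 reads in both Ctrl shRNA libraries and 11 and 28 reads in the STAT3 shRNA libraries, at least 10.96-fold higher against a floor of 3 reads over the Ctrl shRNA group. With STAT3 shRNA replicate 1 alone the bound was 5.23-fold, and with replicate 2 alone 19.3-fold. EGR3 did not pass the filter and was not tested. EGR2, also named after its values were seen, had 7, 5, 17 and 9 reads and did not pass. The corepressors of EGR1, NAB1 and NAB2, were lower with STAT3 shRNA. NAB2 went from 33.8 ± 7.15 to 20.9 ± 0.552 CPM (SD, n = 2 each; edgeR adjusted p = 0.00641) and NAB1 from 56.5 ± 5.999 to 44.5 ± 3.85 CPM (edgeR adjusted p = 0.0374; range over alternatives 0.000480 to 0.345). The call of NAB1 was lost in 6 of 16 alternatives. Among these were upper-quartile scaling, FPKM, and leaving out STAT3 shRNA replicate 1 or 2 (log2 fold change -0.26 and -0.44).

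IER3, an early-response protein that is itself a substrate of ERK, went the other way. It was at 43.8 and 55.3 CPM with Ctrl shRNA and 33.5 and 41.3 CPM with STAT3 shRNA. The group averages were 49.5 ± 8.11 and 37.4 ± 5.55 CPM (SD, n = 2 each). The gap between the groups was smaller than the gap between the libraries of either group. IER3 fell by 0.41 ± 0.14 on the log2 scale (SE; 95% interval -0.73 to -0.09), a 1.33-fold lower level (edgeR adjusted p = 0.0489; range over alternatives 0.000638 to 0.373). The call was lost without Ctrl shRNA replicate 2 (-0.24, edgeR adjusted p = 0.127), without STAT3 shRNA replicate 1 (-0.26, 0.373) or 2 (-0.57, 0.0556), with upper-quartile scaling, with FPKM and with a GC offset. IER3 lies at 30743199 to 30744554 of chromosome 6 on the minus strand, and its antisense gene IER3-AS1 held 0.226% as many reads.

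Levels of the genes can be set beside each other in the deposited FPKM, which account for length. With Ctrl shRNA the order was DUSP1, IER3, EGR1, SPRY2, SPRED2, SPRED1, DUSP5, DUSP6, DUSP4 and SPRY4. IER3 was at 48.6 ± 8.35 FPKM, EGR1 at 23.5 ± 0.750, SPRY2 at 9.21 ± 0.658 and SPRED2 at 4.41 ± 0.262 FPKM (SD, n = 2 each). The other 5 genes were lower than SPRED2 in both libraries, and DUSP6 could not be told from DUSP5 or DUSP4, whose values its own 2 libraries enclosed. With STAT3 shRNA EGR1, at 41.1 ± 6.37 FPKM, stood beside IER3, at 38.1 ± 6.31 FPKM, with overlapping libraries. DUSP5 stood above SPRED1 in that group, at 2.39 ± 0.778 against 1.39 ± 0.120 FPKM (SD, n = 2 each), and its upper library overlapped with those of SPRED2. There DUSP6 overlapped with both SPRED1 and DUSP4, which did not overlap with each other.

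Fold changes moved with base composition across the table, with a Spearman rho of -0.34 between log2 fold change and transcript GC content over 14541 genes, which are not independent replicates. The same rho was -0.45 for the difference between the 2 Ctrl shRNA libraries and 0.12 for that between the 2 STAT3 shRNA libraries. DUSP1 and EGR1 have transcripts of 55.1% and 55.4% GC, and tested genes within 2 percentage points of them had a median log2 fold change of -0.13 in both cases, below 0. With a GC offset the changes of DUSP1 and EGR1 were 0.84 and 0.86. IER3, at 58.5% GC, had neighbours with a median of -0.17, and its change became -0.21 with the offset (edgeR adjusted p = 0.209). SPRED1, at 38.9% GC, had neighbours with a median of 0.23. SPRY2, at 48.3% GC, was at -1.11 with the offset.

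**Figure D3:**
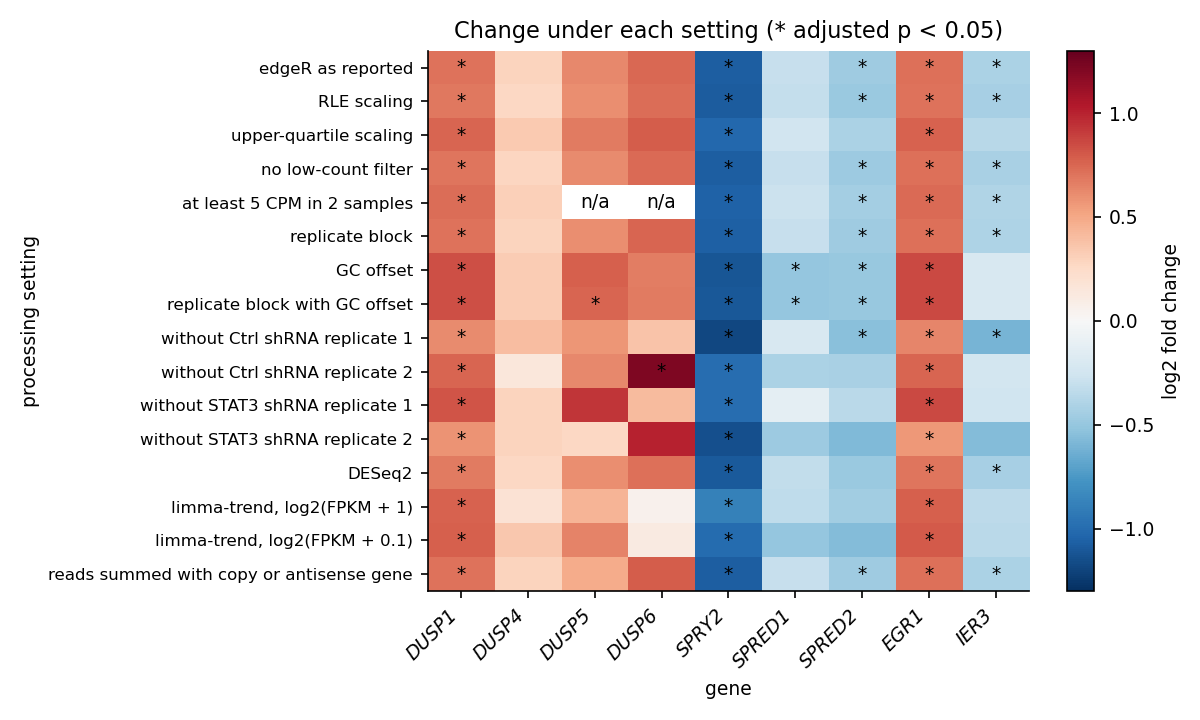
Log2 fold change of the 9 tested genes (columns) under each processing setting (rows), with an asterisk where the adjusted p was under 0.05 and n/a where a filter removed the gene. DUSP1, EGR1 and SPRY2 carry an asterisk in every row, while those of SPRED2 and IER3 are lost in several.

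The cascade that these genes regulate was read from a list of 21 adapters, RAS proteins and kinases, of which 20 were tested. In this list 4 rose, 5 fell and 11 did not pass, and the median change was -0.03 on the log2 scale. Calls made up 45% of the tested genes of this list, against 35.5% of all tested genes. The RAS exchange factor SOS2 rose from 16.9 ± 1.17 to 27.4 ± 1.19 CPM and the kinase BRAF from 17.7 ± 3.90 to 26.02 ± 0.666 CPM (SD, n = 2 each; edgeR adjusted p = 0.00202 and 0.0193). NRAS and the adapter GAB1 rose by 0.33 and 0.62 on the log2 scale (edgeR adjusted p = 0.0139 and 0.0315). The adapter SHC1 fell from 191 ± 10.7 to 114 ± 1.80 CPM (edgeR adjusted p = 0.000338). HRAS, the scaffold KSR1, MAP2K2, which encodes a MEK kinase, and the ERK-activated kinase RPS6KA1 fell by 0.41, 0.44, 0.26 and 0.32. GAB1, KSR1, MAP2K2 and RPS6KA1 were named after their values were seen. The calls of BRAF, NRAS, GAB1, HRAS, KSR1, MAP2K2 and RPS6KA1 were each lost in 5 or more of 16 alternatives, and that of SHC1 in 2, both with FPKM, where its change became -0.31. With the GC offset the changes of HRAS and MAP2K2 were -0.04 and -0.0092, that of RPS6KA1 was -0.16 and that of NRAS was 0.12, and none of these 4 passed. BRAF was at 0.35 without Ctrl shRNA replicate 2 and at 0.37 with the GC offset.

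Other negative regulators of RAS and ERK also moved in both directions. Of 12 tested, 4 rose, 3 fell and 5 did not pass. The share called was 58.3% here, against 35.5% of all tested genes. LRIG1, which lowers receptor levels, went from 1.95 ± 0.353 to 4.76 ± 0.795 CPM and the RAS GTPase-activating protein RASA2 from 15.8 ± 1.87 to 26.4 ± 1.14 CPM (SD, n = 2 each; edgeR adjusted p = 0.00755 and 0.00229). RASAL2 and the EGF receptor inhibitor ERRFI1 rose by 0.37 and 0.44 on the log2 scale. RASA3, a relative of RASA2, fell from 105 ± 5.58 to 58.7 ± 2.62 CPM (edgeR adjusted p = 0.000238). PEBP1, the RAF kinase inhibitor protein, and LZTR1, which promotes removal of RAS, fell by 0.32 and 0.33. ERRFI1 and LZTR1 were named after their values were seen. The calls of RASAL2, ERRFI1, PEBP1 and LZTR1 were each lost in 5 or more of 16 alternatives, and that of LRIG1 without STAT3 shRNA replicate 2 (edgeR adjusted p = 0.0782; range over alternatives 0.000110 to 0.177). With FPKM the calls of LRIG1 and RASA2 were lost, and the change of RASA2 became 0.24 and 0.28 at pseudocounts of 1 and 0.1. With the GC offset LZTR1 was at -0.07, PEBP1 at -0.21 and RASAL2 at 0.19, and ERRFI1 was at 0.29 without Ctrl shRNA replicate 2.

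Among 9 tested genes of a further list of ERK outputs, 3 fell and 6 did not pass, with a median of -0.01. That is 33.3% called, near the 35.5% of all tested genes. The ETS factors ETV4 and ETV5, commonly used as readouts of the pathway, went from 12.1 ± 1.11 to 5.30 ± 0.573 CPM and from 10.1 ± 0.473 to 3.44 ± 0.176 CPM (SD, n = 2 each; edgeR adjusted p = 0.00123 and 0.000440). The receptor tyrosine kinase EPHA2 went from 110.3 ± 1.06 to 66.9 ± 1.51 CPM (edgeR adjusted p = 0.000342). MAFF and LIF had log2 fold changes of -0.50 and 0.47 and did not pass (edgeR adjusted p = 0.0512 and 0.0524). Over 16 alternatives MAFF ranged from -0.73 to -0.21 and LIF from 0.41 to 0.90. MAFF gained a call in 3 of them and LIF in 5. EPHA4 was not analysed here.

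Of 15 tested immediate-early genes other than EGR1 and IER3, 5 rose, 1 fell and 9 did not pass, with a median of 0.20. That is 40% called, near the 35.5% of all tested genes. FOSB rose from 17.6 ± 0.734 to 85.8 ± 0.207 CPM, FOS from 178 ± 11.6 to 334 ± 4.66 CPM and the stress-induced factor ATF3 from 19.7 ± 3.30 to 39.1 ± 1.51 CPM (SD, n = 2 each; edgeR adjusted p = 2.63e-06, 0.000130 and 0.000641). The antiproliferative gene BTG2 and ZFP36, which speeds decay of messenger RNAs, rose by 0.75 and 0.92 on the log2 scale. ZFP36 lost its call without STAT3 shRNA replicate 1 (edgeR adjusted p = 0.0527; range over alternatives 0.0000837 to 0.0527). JUNB, named after its values were seen, fell by 0.84 (edgeR adjusted p = 0.00680). Its Ctrl shRNA libraries were at 126 and 197 CPM, and its log2 fold change was -1.16 without Ctrl shRNA replicate 1, -0.49 without replicate 2 and -0.48 with the GC offset. Of the 8 genes for SRF, its partners and the NAB corepressors, the ternary complex factor ELK4 rose by 0.65 (edgeR adjusted p = 0.00693), NAB1 and NAB2 fell, and SRF itself was among the 5 that did not pass. SRF was named after its values were seen. Of these 8 genes 37.5% were called, near the 35.5% of all tested genes. With FPKM the calls of JUNB, ELK4, NAB1 and NAB2 were lost, and with the GC offset NAB2 was at -0.40. BRAF, ETV4, FOSB, LRIG1, MAFF, NAB2 and SHC1 share a span with another gene that holds at least 20% as many reads, and how the counting assigned reads where they overlap is not given in the sources used here, so their values are uncertain. For SHC1 the other gene is on the same strand and shares 335 exonic bases, and for the other 6 it is on the opposite strand. It holds 1009%, 702%, 559% and 448% as many reads as ETV4, NAB2, LRIG1 and BRAF. For FOSB, SHC1 and MAFF it holds 89.4%, 48.8% and 45.8%, and FOSB and MAFF share 0 exonic bases with it.

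**Figure D4:**
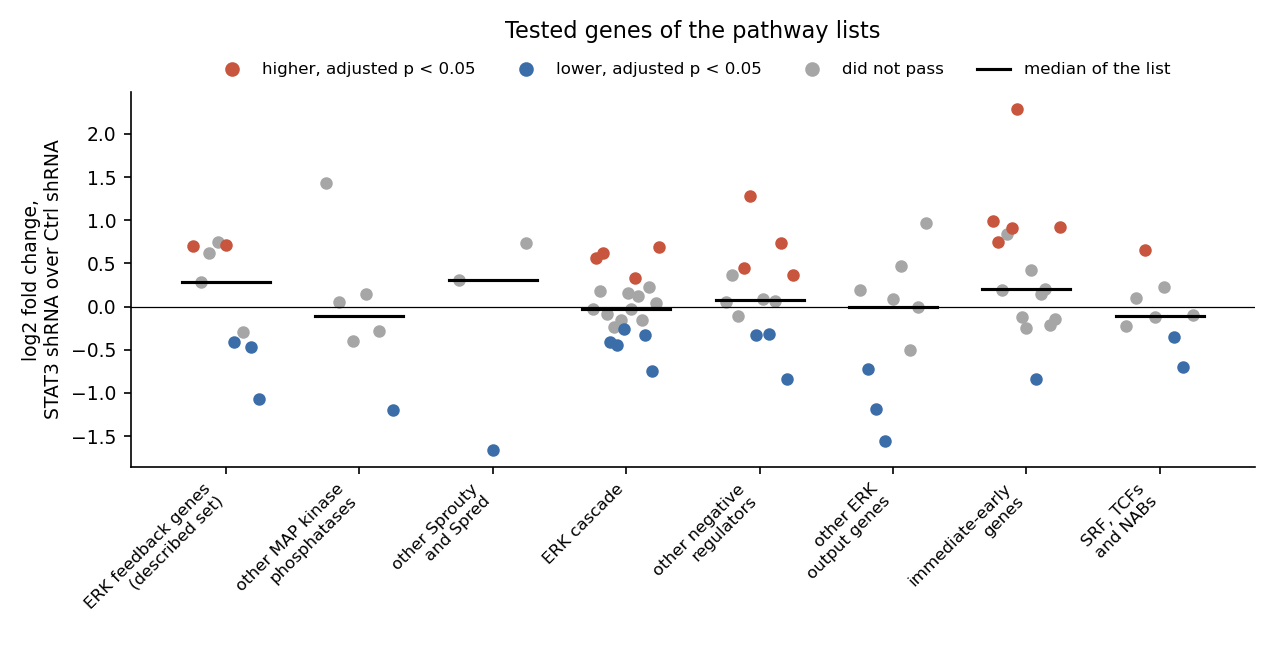
Log2 fold change of every tested gene of the ERK lists, STAT3 shRNA over Ctrl shRNA, with 1 point per gene and a bar at each list's median. Called genes lie on both sides of 0 in most lists, from FOSB at 2.28 to SPRY1 at -1.66.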

How the data were processed

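Gene expression was measured by RNA sequencing in 4 libraries, 2 with Ctrl shRNA and 2 with STAT3 shRNA, grouped by their titles. The file headers name a raw count and an FPKM for each gene, and both kinds of value were deposited by the authors. Sources used here do not give the aligner, the counter, the build, the strand setting or the kit. Columns marked "Si" were taken as STAT3 shRNA. The 10 genes and the lists beside them were chosen with earlier results of these data known.

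The deposited counts went into edgeR 4.0.16 (R 4.3.3): TMM scaling, filterByExpr at its defaults, then the two-sided quasi-likelihood test by glmQLFit and glmQLFTest with no term but the group, over 15199 genes, with Benjamini-Hochberg adjustment over all of them and a threshold of 0.05. SEs were taken from the log2 fold change and the quasi-likelihood F. Total counts of 17694642 to 25862027 make 3 reads worth 0.113 to 0.163 CPM; the SPRY4 ratio's interval and the floors cover counting error only, while the intervals of fold changes come from the quasi-likelihood fit and include the spread between libraries. Replicates differed by more than sampling noise (chi-square per degree of freedom 13.9 and 4.20). In simulated counts for 15199 genes of this comparison the test recovered 18 of 50 genes changed 1.5-fold, 45 of 50 changed 2-fold, and called 14 of 14999 unchanged genes. The simulated counts had the same dispersion (0.009674) for every gene and no GC trend between libraries. These rates therefore do not give the error rate in the real libraries.

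Positions and GC content are from GENCODE 29 (GRCh38), matched by Ensembl ID without version for 25996 of 26420 IDs. Promoter sequences are from RefSeq (GRCh38.p14), with 250 bases before the start searched on both strands for TGACG and the CArG box, for the AP-1 motif TGANTCA and the ETS motif CCGGAA, for the STAT-type motif TTCNNNGAA, for the EGR motif GCGNGGGCG and for the TATA motif TATAAA.

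Named genes were STAT3, the 10 genes, all other MAP kinase phosphatases, Sprouty and Spred genes, and up to 5 tested genes with the smallest p of each further list; others are marked as named after their values were seen. Alternatives were RLE and upper-quartile scaling, no filter, a filter of 5 CPM in 2 libraries, a block for replicate number (with and without the GC offset), a lowess offset for GC content, leaving out each library, DESeq2 1.42.0, limma 3.58.1 (trend) on log2(FPKM + 1) and log2(FPKM + 0.1), and a threshold of 0.01. Summing the reads of DUSP1, DUSP5, DUSP6 and IER3 with those of overlapping antisense genes or the pseudogene was added after the data were seen. When 1 library is left out, the lone library of its group is assumed to vary like the others.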

Additional observations from a re-analysis of the deposited data

How the results depend on the processing

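Over 16 alternatives, 15 of them planned, DUSP1, EGR1, SPRY2 and DUSP9 kept their direction and their side of the threshold, with adjusted p-values (edgeR, DESeq2 or limma) up to 0.0184, 0.0222, 0.0235 and 0.0175. The calls of SPRED2 and IER3 were lost in 8 and 9 of 16, and DUSP5, DUSP6 and SPRED1 gained one in 1, 1 and 2. The count of 3 lower genes of the 10 became 1 with upper-quartile scaling, with limma on either FPKM scale and at a threshold of 0.01, 2 with DESeq2 and 1 to 3 with a library left out. Genes called in all, 5396, numbered 2535 and 2494 with limma on log2(FPKM + 1) and log2(FPKM + 0.1), 2897 at 0.01 and 2527 to 7291 with a library left out. Those higher, 2552, numbered 1630 with DESeq2, 1349 and 1315 with limma, 1265 at 0.01 and 1128 to 3367 with a library left out. Those lower, 2844, numbered 1186 and 1179 with limma, 1632 at 0.01 and 1399 to 3924 with a library left out. With upper-quartile scaling 2949 were higher and 2412 lower, so 55% of the calls were higher against 47.3%. The cause was not tested. Signs turned in 13 of 919 gene values, none of them called: DUSP8 at 0.055 (GC offset), 0.047 (replicate block with GC offset), 0.22 and 0.26 (FPKM), DUSP16 at -0.011 (GC offset), -0.013 (replicate block with GC offset) and -0.0080 (without STAT3 shRNA replicate 1, up to 0.12 with others left out), SPRED3 at -0.037 (without Ctrl shRNA replicate 1), -0.44 (without STAT3 shRNA replicate 1, up to 0.77 with others left out), -0.33 and -0.45 (FPKM), SPRY3 at -0.24 (without STAT3 shRNA replicate 1, up to 1.25 with others left out) and the marker PDGFRB at -0.041 (without Ctrl shRNA replicate 1, up to 0.41 with others left out). Same-numbered libraries did not deviate together (r = -0.02 across 15199 genes), and the replicate block called 5447 genes, with 2 higher and 3 lower of the 10. Depth limits SPRY4, DUSP6, SPRY1, DUSP10, SPRY3, SPRED3, EGR2 and EGR3, each under 100 reads per library.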
